A study of Homo sapiens with 8 samples.

Results

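The genes described here are 10 that drive entry into mitosis and the wait before chromosomes separate: the kinases AURKA, AURKB, PLK1, BUB1, TTK and CDK1, the checkpoint protein BUB1B, the cyclins CCNB1 and CCNA2, and CDC20. They were chosen by name for their role, as 10 of the 35238 gene symbols in the count table. Earlier results of these data were known at that choice, so counts and medians of the 10 describe them and are no test of the set. All 10 were among the 15085 genes that passed the filter on low counts and were tested. The cells were MP38, a BAP1-mutant uveal melanoma (UM) cell line, grown for 24 h in 1 of 4 media: 0.1% DMSO alone, which served as the control, 40 nM romidepsin, 40 nM quisinostat or 1200 nM mivebresib. By the study's methods, the drug media also held 0.1% DMSO. Histone deacetylases (HDAC) are the targets of the first 2 drugs, and mivebresib occupies the bromodomains through which BET proteins read acetylated histones. Each group held 2 libraries of bulk, strand-specific mRNA sequencing, and all 8 libraries came from the same cell line, so the results describe that line alone.

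As background, a rise of cyclin A and then cyclin B activates CDK1 and brings cells into mitosis, while AURKA and PLK1 mature the spindle poles and AURKB corrects faulty attachments of chromosomes at the kinetochore. TTK and BUB1 act at unattached kinetochores, where they help to assemble a complex of checkpoint proteins, BUB1B among them, that holds CDC20 in check. Once all chromosomes are attached, CDC20 activates the anaphase-promoting complex (APC/C), which marks cyclin B and securin for destruction. The transcripts of these genes are made mostly in the G2 and M phases in dividing cells and are low in resting ones.

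Depth was close to equal, with 28483235 to 29359024 counts per library. The 2 control libraries differed from each other more than those of any drug group, with a chi-square statistic per degree of freedom of 58.2 against 9.52 to 9.79. By the study's methods, the libraries of a group came from separately seeded and treated wells of the line, so every p-value below measures the spread between wells. Of 7 melanocyte lineage genes, 6 were expressed in every library and DCT had 0 to 5 counts, with summed levels of 4190 to 5450 counts-per-million (CPM) in the control and 3560 to 5030 with the drugs. TYRP1 made up most of that sum, at group means of 2990 to 3680 CPM. Means of MITF, SOX10 and MLANA were 350, 209 and 206 CPM in the control and 301, 159 and 187 with romidepsin. They were 133, 110 and 99.6 with quisinostat and 126, 55.0 and 81.8 with mivebresib. Most markers of other cell types were near 0: the summed level was at most 0.694 CPM for 4 fibroblast genes and at most 0.764 CPM for 3 endothelial genes, the leukocyte genes CD3E and PTPRC had 0 and 1 to 11 counts, and the epithelial gene KRT5 had 0 counts. The exceptions were CD68, at 1699 to 2307 counts, which made up most of a leukocyte sum of 61.2 to 83.2 CPM, and KRT18, at 51 to 202 counts, in an epithelial sum of 2.05 to 3.37 CPM in the control, 2.75 to 2.76 with romidepsin, 5.32 to 6.68 with quisinostat and 5.63 to 5.68 with mivebresib; their part in the results was not tested. In bulk RNA, fewer cells in mitosis and less RNA of these genes per cell cannot be told apart.

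The mitotic genes were lower with every drug. With romidepsin, 10 of 10 fell at a Benjamini-Hochberg adjusted p below 0.05 in edgeR's quasi-likelihood test, where 15.8% of all tested genes were called lower. With quisinostat, 10 of 10 fell, against 25.1% of all tested genes. With mivebresib, 9 of 10 fell, against 24.1% of all tested genes, and BUB1 was the exception. The median log2 fold change (FC) of the 10 genes was -0.77, -1.08 and -0.66 for romidepsin, quisinostat and mivebresib, an order of the drugs kept below wherever 3 values stand in a row; over all tested genes it was -0.012, -0.0036 and 0.0067. Both libraries of the drug lay below both controls for 10, 10 and 9 of the 10 genes, against 32.5%, 35.8% and 34.3% of all tested genes. Calls in the other direction, of which the members had 0, were made for 15.2%, 28.0% and 22.2% of all tested genes. These shares, lower and higher, are also the background for the counts of gene lists against the control below. Most falls were moderate. Past a log2 FC of 1.5, the fall that the study also required, there were 0 of the 10 genes with romidepsin (0.312% of all tested genes), 1 with quisinostat (AURKB; 1.03%) and 1 with mivebresib (AURKA; 4.36%). Since the 3 contrasts share the control libraries, they are not independent of each other.

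**Figure D1:**
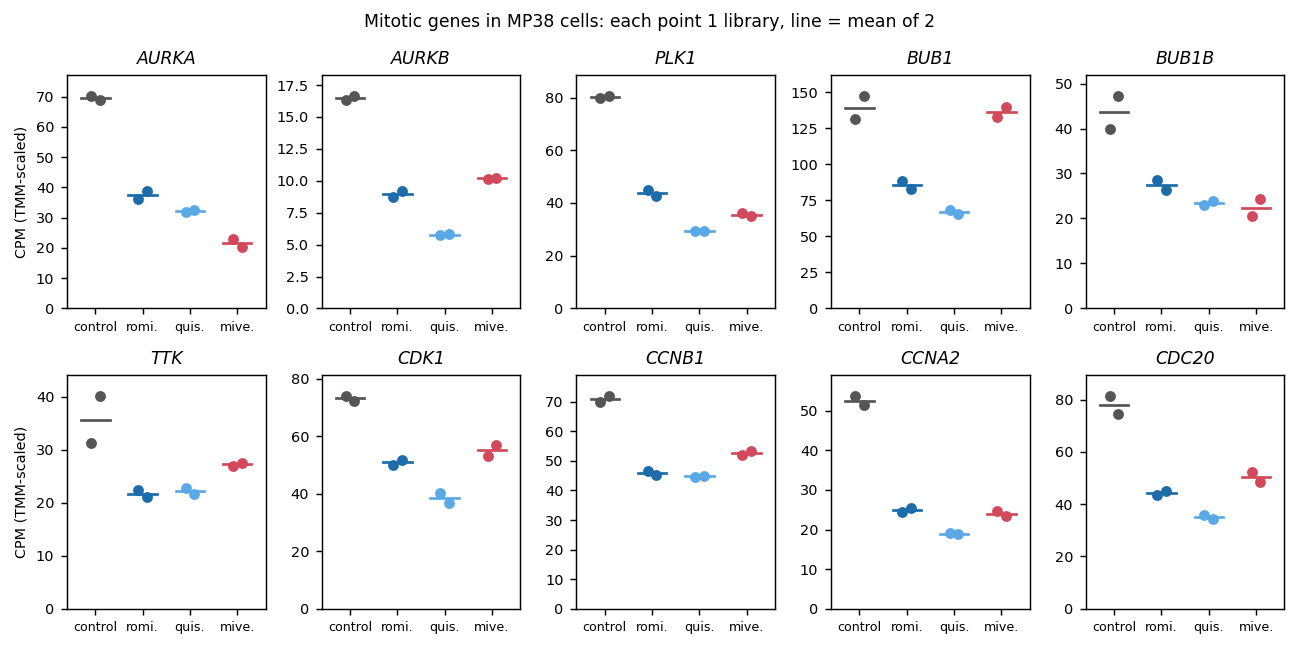
Level of each mitotic gene in each library, in CPM after TMM scaling on an axis that starts at 0, by group (points are libraries and the line is the mean of 2). The drug libraries lie below both control libraries in every panel except BUB1, where the mivebresib libraries, at 133 and 139.9 CPM, lie within the control range.

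Because these genes fell together, the sequence before their starts is shown for 5 of them: PLK1 and CCNA2, which fell by more than the median of the 10 with every drug, CDC20, whose log2 FC lay near that median, and BUB1 and BUB1B as the pair that parted with mivebresib. AURKA and AURKB also fell by more than that median with every drug and are not shown. RefSeq promoter windows on GRCh38.p14, from 250 bases before to 50 after each start, were read for 8 of the 10 genes; those of AURKA and TTK were not analysed here. The 150 bases before the start are printed 5′ to 3′ on the strand of the gene. Capitals mark CCAAT, the box that NF-Y binds, and TTTGAA or TTCGAA, letters of the cell cycle element (CHR) that the MuvB complexes bind, each searched on both strands (CCAAT on the other strand reads ATTGG). No match overlapped another in the stretches shown. Only these letters were searched, so any other form of the CHR, in CCNA2 or elsewhere, is neither marked nor counted.
PLK1, chr16:23678739-23678888, plus strand: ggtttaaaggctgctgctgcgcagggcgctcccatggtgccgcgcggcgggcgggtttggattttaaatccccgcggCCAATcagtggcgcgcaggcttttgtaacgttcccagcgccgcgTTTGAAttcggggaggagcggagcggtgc
CDC20, chr1:43358831-43358980, plus strand: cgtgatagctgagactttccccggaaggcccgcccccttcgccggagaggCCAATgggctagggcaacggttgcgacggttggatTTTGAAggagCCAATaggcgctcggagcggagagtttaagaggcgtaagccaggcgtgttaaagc
CCNA2, chr4:121823884-121824033, minus strand: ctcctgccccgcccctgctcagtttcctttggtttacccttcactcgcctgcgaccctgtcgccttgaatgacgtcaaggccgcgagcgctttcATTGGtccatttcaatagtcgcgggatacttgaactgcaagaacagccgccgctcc
BUB1, chr2:110678064-110678213, minus strand: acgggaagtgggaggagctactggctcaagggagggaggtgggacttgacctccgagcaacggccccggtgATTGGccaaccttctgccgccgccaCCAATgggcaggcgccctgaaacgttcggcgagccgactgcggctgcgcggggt
BUB1B, chr15:40160919-40161068, plus strand: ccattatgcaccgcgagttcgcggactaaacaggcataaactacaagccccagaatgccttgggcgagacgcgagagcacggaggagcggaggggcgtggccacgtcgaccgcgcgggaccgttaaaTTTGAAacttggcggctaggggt
In PLK1 a CCAAT began 73 bases and a TTTGAA 29 bases before the start, and in CDC20 a CCAAT stood on each side of a TTTGAA. The window of CCNA2 held an inverted CCAAT, BUB1 held a pair of CCAAT in opposite directions, and BUB1B held a TTTGAA 23 bases before the start. CCAAT was in 7 of the 8 windows, against 39.7% of 27305 genes with a window, each gene counted once. TTTGAA or TTCGAA was in 5 of the 8, against 19.5%, with the TTCGAA of BUB1 just after its start and outside the stretch shown. Both kinds were in 4 of the 8, against 9.02%, and TATAAA was in 0 of the 8, against 14.0%. A match describes the letters of the window and is not evidence of binding.

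AURKA (chr20:56369389-56392337 on GRCh38, minus strand), the kinase of the spindle poles, stood at 70.3 and 68.9 CPM in the control libraries, 36.3 and 38.7 with romidepsin, 32.0 and 32.7 with quisinostat, and 23.1 and 20.3 with mivebresib. No group overlapped another, and mivebresib gave the lowest level. The log2 FC was -0.89 ± 0.086 (SE, n = 2 per group; edgeR adjusted p = 0.000234) with romidepsin, -1.11 ± 0.087 (edgeR adjusted p = 2.01e-05) with quisinostat and -1.68 ± 0.089 (edgeR adjusted p = 4.67e-06) with mivebresib, which left 31.2% of the control mean. TPX2, which activates AURKA and carries it to the spindle, fell with all 3 drugs (log2 FC -0.59, -0.93 and -1.08). BORA, the AURKA cofactor that switches on PLK1, was singled out after its values were seen: it was at 5.38 and 3.87 CPM in the control and at 2.12 and 2.16 CPM with mivebresib, a log2 FC of -1.11 ± 0.19 (edgeR adjusted p = 0.00178), whereas its log2 FC of -0.079 with romidepsin and -0.23 with quisinostat did not pass the test.

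AURKB (chr17:8204733-8210600, minus strand), the kinase of the chromosomal passenger complex, showed a different order. Its level was 16.4 and 16.7 CPM in the control, 8.76 and 9.23 with romidepsin, 5.73 and 5.83 with quisinostat, and 10.1 and 10.2 with mivebresib. All 3 drugs lowered it below both controls, and here quisinostat gave the lowest level. edgeR gave a log2 FC of -0.88 ± 0.095 with romidepsin, -1.51 ± 0.098 with quisinostat and -0.70 ± 0.094 with mivebresib (edgeR adjusted p = 0.000413, 7.68e-06 and 0.000485). The ratio of AURKA to AURKB counts within a library was 4.29 and 4.14 in the control, 4.14 and 4.19 with romidepsin, 5.59 and 5.61 with quisinostat, and 2.28 and 1.98 with mivebresib. The mivebresib libraries thus had the lowest ratios of the 8 and the quisinostat libraries the highest. The 3 partners of AURKB in the passenger complex all fell with each drug, with median log2 FC of -1.04, -1.49 and -1.04. Survivin (BIRC5), which docks the complex on the centromere, had log2 FC of -1.04, -1.67 and -1.25, borealin (CDCA8) of -1.33, -1.49 and -1.04, and the scaffold INCENP of -0.61, -0.71 and -0.98, the first lost without romidepsin replicate 2.

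PLK1 (chr16:23677656-23690367, plus strand), the polo kinase of mitotic entry and spindle assembly, was at 80.0 and 80.7 CPM in the control, 44.9 and 42.8 with romidepsin, 29.5 and 29.6 with quisinostat, and 36.2 and 35.0 with mivebresib. The 4 groups did not overlap. The log2 FC was -0.87 ± 0.072, -1.44 ± 0.073 and -1.17 ± 0.073 (edgeR adjusted p = 0.000125, 2.81e-06 and 9.12e-06 for romidepsin, quisinostat and mivebresib). PLK1 shares 42 exon bases on the opposite strand with ERN2, which had 3 to 12 counts. Among 13 other mitotic kinases tested, 9 fell and 2 rose with romidepsin, 10 fell and 2 rose with quisinostat, and 6 fell and 2 rose with mivebresib, with medians of -0.49, -0.66 and -0.25. PLK4, which starts centriole duplication, fell (log2 FC -1.34, -1.97 and -0.81). Haspin, listed as GSG2, which marks the centromere for the passenger complex, fell too (-1.24, -1.59 and -1.19). In the other direction, NEK9, a kinase upstream of other NEK kinases, rose by 0.37, 0.46 and 0.58, the first lost without either romidepsin library, and the stress-responsive PLK3 rose by 0.50 with quisinostat, a call lost without quisinostat replicate 1, and by 0.79 with mivebresib, its log2 FC of 0.24 with romidepsin not passing the test. PLK2 rose with romidepsin (log2 FC 0.36; edgeR adjusted p = 0.00863) and fell with quisinostat (-0.43; 0.00172), its 0.036 with mivebresib not passing. TACC3, which AURKA recruits to spindle microtubules, fell (log2 FC -0.72, -1.35 and -0.43). Of the 5 partners of AURKA and PLK1 tested, 3 fell and 0 rose with each drug.

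CDK1 (chr10:60778331-60794852, plus strand), the kinase that drives mitotic entry, was among the genes with the smaller falls. It stood at 74.0 and 72.4 CPM in the control, 49.9 and 51.9 with romidepsin, 40.5 and 36.9 with quisinostat, and 53.3 and 57.0 with mivebresib. All treated libraries were below the controls. As a log2 FC the change was -0.52 ± 0.081, -0.92 ± 0.082 and -0.41 ± 0.081 (edgeR adjusted p = 0.00217, 3.98e-05 and 0.0036 for romidepsin, quisinostat and mivebresib), which left 69.6%, 52.8% and 75.3% of the control mean.

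CCNB1 (chr5:69167010-69178245, plus strand), the cyclin partner of CDK1 in mitosis, also fell with each drug. It was at 69.8 and 71.9 CPM in the control, 46.5 and 45.1 with romidepsin, 44.7 and 44.8 with quisinostat, and 52.1 and 53.4 with mivebresib. Its log2 FC of -0.63 ± 0.071, -0.66 ± 0.071 and -0.42 ± 0.071 all passed the test (edgeR adjusted p = 0.000495, 0.000111 and 0.00146). CCNB2, the other B-type cyclin of somatic cells, fell as well (log2 FC -0.76, -0.80 and -0.68). The count ratio of CCNB1 to CDK1 was 1.1 and 1.22 with quisinostat, above the 0.868 to 0.993 of the other 6 libraries.

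CCNA2 (chr4:121816444-121823933, minus strand), the cyclin of S phase and early mitosis, fell more than CCNB1 with every drug. It was at 53.7 and 51.5 CPM in the control, 24.4 and 25.5 with romidepsin, 19.1 and 18.9 with quisinostat, and 24.6 and 23.5 with mivebresib. The log2 FC was -1.08 ± 0.078, -1.47 ± 0.079 and -1.13 ± 0.078 (edgeR adjusted p = 9.01e-05, 3.63e-06 and 1.5e-05). The count ratio of CCNA2 to CCNB1 was 0.77 and 0.716 in the control and between 0.421 and 0.567 in the 6 drug libraries, so the ranges did not overlap. CCNA2 shares 254 exon bases with EXOSC9 on the opposite strand, which had 501 to 963 counts; whether the counting used strand is not given in the sources used here. The log2 FC of EXOSC9 was 0.019 with romidepsin, -0.071 with quisinostat and -0.69 with mivebresib, so with mivebresib its level moved with that of CCNA2, and its part in that value was not tested.

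The genes that set the activity of CDK1 did not move as a block. Of 14 tested, 7 fell and 2 rose with romidepsin, 5 fell and 3 rose with quisinostat, and 5 fell and 1 rose with mivebresib, with medians of -0.41, -0.25 and -0.098. Among all tested genes, 15.8%, 25.1% and 24.1% were called lower and 15.2%, 28.0% and 22.2% higher. CDC25A, a phosphatase that activates CDKs, fell (log2 FC -1.24, -1.48 and -1.31), as did PKMYT1, a kinase that inhibits CDK1 (-0.93, -1.71 and -0.97). WEE1, the nuclear kinase that inhibits CDK1, was at 52.3 and 50.1 CPM in the control, 28.8 and 28.4 with romidepsin, 46.4 and 49.0 with quisinostat, and 47.7 and 51.6 with mivebresib. It fell with romidepsin (log2 FC -0.84 ± 0.080; edgeR adjusted p = 0.000226), while its log2 FC of -0.10 with quisinostat and -0.043 with mivebresib did not pass. WEE1 was higher with quisinostat than with romidepsin by 0.74 ± 0.080 on the log2 scale (edgeR adjusted p = 0.000369), the opposite of the order seen for CDK1. MNAT1, a subunit of the CDK-activating kinase, rose by 0.75, 0.65 and 0.41, the last at an edgeR adjusted p of 0.0248 that was lost without control replicate 2 (log2 FC 0.257) and without either mivebresib library.

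BUB1 (chr2:110637698-110678114, minus strand), a kinase that recruits checkpoint proteins to kinetochores, was the 1 member that was not called lower with mivebresib. It stood at 131 and 147 CPM in the control, 88.6 and 83.1 with romidepsin, 68.5 and 65.6 with quisinostat, and 133 and 139.9 with mivebresib. The HDAC inhibitor libraries lay far below the controls, and both mivebresib libraries lay between the 2 control values. On the log2 scale the FC was -0.70 ± 0.087 with romidepsin and -1.05 ± 0.088 with quisinostat (edgeR adjusted p = 0.00078 and 2.86e-05). With mivebresib it was -0.029 with a 95% interval from -0.23 to 0.17 (edgeR adjusted p = 0.808), so a fall of the size seen with either HDAC inhibitor was outside the interval.

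BUB1B (chr15:40161023-40221136, plus strand), which encodes BUBR1 of the checkpoint complex, fell with all 3 drugs. It was at 39.9 and 47.3 CPM in the control, 28.5 and 26.2 with romidepsin, 23.0 and 23.9 with quisinostat, and 20.5 and 24.3 with mivebresib. The log2 FC was -0.67 ± 0.12, -0.90 ± 0.12 and -0.96 ± 0.12 (edgeR adjusted p = 0.00348, 0.000304 and 0.000273). The count ratio of BUB1 to BUB1B was 3.29 and 3.12 in the control, 3.10 and 3.17 with romidepsin and 2.98 and 2.75 with quisinostat, but 6.49 and 5.75 with mivebresib. The readthrough gene BUB1B-PAK6, on the same strand, had 0 to 2 counts.

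TTK (chr6:80003887-80042527, plus strand), the MPS1 kinase that starts checkpoint signalling, had the largest adjusted p of the 9 genes called with mivebresib. It was at 31.2 and 40.1 CPM in the control, 22.4 and 21.0 with romidepsin, 22.8 and 21.6 with quisinostat, and 27.0 and 27.5 with mivebresib. All drug libraries were below both controls, which themselves were far apart. The fitted log2 FC was -0.71 ± 0.12 and -0.68 ± 0.12 with romidepsin and quisinostat (edgeR adjusted p = 0.0031 and 0.00159) and -0.39 ± 0.12 with mivebresib (edgeR adjusted p = 0.0264). That last call was lost without control replicate 2, where the log2 FC was -0.20, without either mivebresib library, and in a fit of the 4 libraries alone (edgeR adjusted p = 0.0801).

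Of 9 other spindle checkpoint genes, 7 fell with romidepsin and 5 with quisinostat, none rising, and 6 fell and 1 rose with mivebresib, with medians of -0.35, -0.37 and -0.51. MAD2L1, the checkpoint protein that binds CDC20, fell (log2 FC -0.90, -0.99 and -0.27), the last at an edgeR adjusted p of 0.0291 that was lost without control replicate 1 and without either library of romidepsin or mivebresib. TRIP13, the ATPase that recycles MAD2, fell (-0.75, -1.53 and -0.74). The gene that rose was MAD1L1, the kinetochore anchor of MAD2: it was at 11.4 and 12.6 CPM in the control and at 23.3 and 21.9 CPM with mivebresib, a log2 FC of 0.91 ± 0.10 (edgeR adjusted p = 0.000177). With romidepsin MAD1L1 was called lower (-0.35; edgeR adjusted p = 0.0368), and its 0.19 with quisinostat did not pass. Of 14 kinetochore genes, 11 fell and 1 rose with romidepsin, 10 fell and 1 rose with quisinostat, and 8 fell and 1 rose with mivebresib, with medians of -0.71, -0.99 and -0.50. PMF1, a subunit of the MIS12 complex that shares exons with the readthrough gene PMF1-BGLAP, fell (-0.87, -1.91 and -1.16). The kinetochore gene that rose with each drug was NSL1 (0.36, 0.60 and 0.28).

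CDC20 (chr1:43358955-43363203, plus strand), the APC/C activator that the checkpoint restrains, was at 81.4 and 74.7 CPM in the control, 43.6 and 44.9 with romidepsin, 36.1 and 34.2 with quisinostat, and 52.2 and 48.5 with mivebresib. The 4 groups did not overlap. The log2 FC was -0.82 ± 0.083, -1.15 ± 0.083 and -0.63 ± 0.082 (edgeR adjusted p = 0.00028, 1.34e-05 and 0.000387 for romidepsin, quisinostat and mivebresib). UBE2C, the ubiquitin-conjugating enzyme that works with the APC/C, fell (log2 FC -0.86, -1.38 and -0.99), as did FBXO5 (EMI1), an APC/C inhibitor of interphase (-0.85, -1.65 and -0.55). The APC/C coactivator FZR1 was not called with any drug (-0.090, -0.092 and -0.0052). The core subunits of the APC/C had smaller median changes. Of 14, 4 fell and 0 rose with romidepsin, 8 fell and 1 rose with quisinostat, and 4 fell and 2 rose with mivebresib, with medians of -0.27, -0.40 and -0.020. The shares of all tested genes were 15.8%, 25.1% and 24.1% lower and 15.2%, 28.0% and 22.2% higher. The count of 4 with romidepsin ran from 0 to 7 over the other settings and was 0 with library size alone, 1 without control replicate 1 and 7 without control replicate 2. Without romidepsin replicate 1 it was 1, and it was 0 without romidepsin replicate 2 or without any 1 library of quisinostat or mivebresib. The count of 8 with quisinostat ran from 3 to 10. The subunits with the lowest mean log2 FC over the drugs both fell with mivebresib: CDC26 (log2 FC -1.14 ± 0.18; edgeR adjusted p = 0.000994) and ANAPC15 (-0.98 ± 0.18; edgeR adjusted p = 0.00237). ANAPC15 was also called lower with romidepsin (-0.55; edgeR adjusted p = 0.0435). Of those with the highest means, ANAPC4 rose with mivebresib (0.59; edgeR adjusted p = 0.000675) and ANAPC10 with quisinostat (0.41; edgeR adjusted p = 0.0446).

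**Figure D2:**
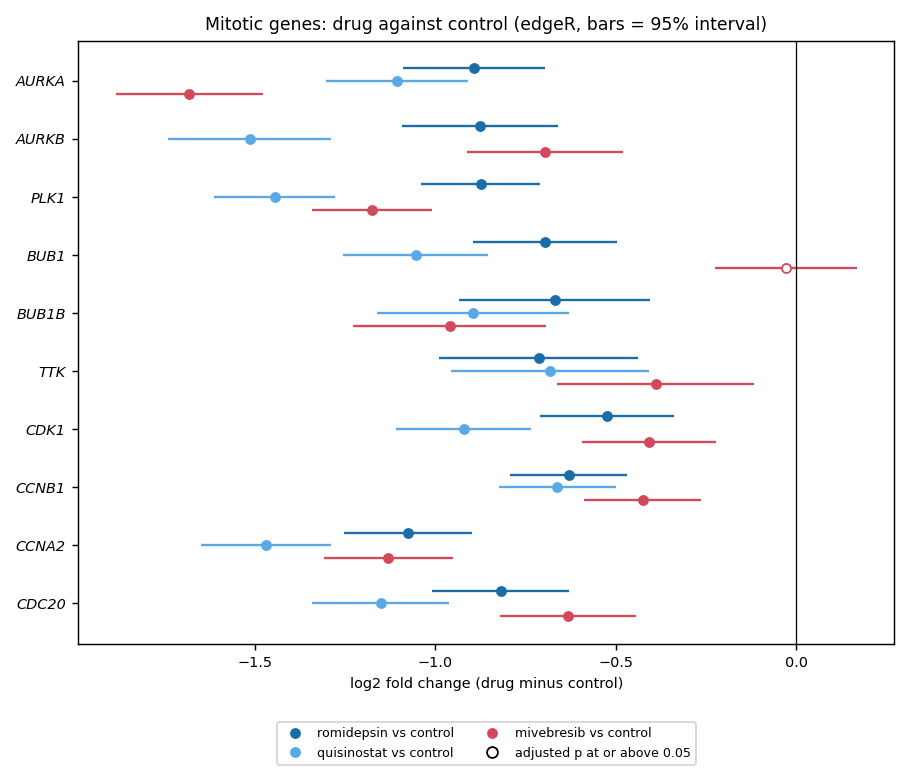
log2 FC of each mitotic gene against the control for romidepsin, quisinostat and mivebresib, with 95% intervals from edgeR (filled points, adjusted p below 0.05; open points, at or above). The mivebresib points run from -1.68 for AURKA to -0.029 for BUB1, the 1 open point, while the romidepsin points run from -1.08 to -0.52.

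The 2 HDAC inhibitors were given at the same concentration, 40 nM, and time and were compared directly. In the study's viability tests romidepsin was the more potent of the 2 in MP38, so equal concentrations were not doses matched by effect. With quisinostat, 6 of the 10 genes were lower than with romidepsin at an edgeR adjusted p below 0.05, against 14.6% of all tested genes, and 0 were higher, against 21.0%. AURKB differed by -0.64 (95% interval -0.87 to -0.41; edgeR adjusted p = 0.002), PLK1 by -0.57 (-0.74 to -0.40; 0.00074), CDK1 by -0.40 (0.00652), CCNA2 by -0.39 (0.006), BUB1 by -0.36 (0.0139) and CDC20 by -0.33 (0.0153). The other 4 did not pass: AURKA at -0.21 (-0.41 to -0.014), BUB1B at -0.23 (-0.49 to 0.041), CCNB1 at -0.032 (-0.19 to 0.13) and TTK at 0.031 (-0.25 to 0.31), intervals that do not show equal levels. Past a log2 difference of 1.5, 0 of the 10 genes were lower in any comparison between drugs, against 0.179% of all tested genes for quisinostat against romidepsin, 12.6% for mivebresib against quisinostat and 6.7% for mivebresib against romidepsin. The count of 6 became 3 without romidepsin replicate 2 or without quisinostat replicate 2, and the calls of BUB1 and CDC20 were lost with library size alone. Leaving out 1 library lost the call of CDC20 for each of the 4 libraries compared, of BUB1 for all but romidepsin replicate 2, of CDK1 for romidepsin replicate 2 or quisinostat replicate 2, and of CCNA2 for romidepsin replicate 2, while AURKA and BUB1B gained one without control replicate 1.

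Mivebresib was given at another dose, so its values stand beside those of the HDAC inhibitors without a comparison at matched dose. Against quisinostat, 7 of the 10 genes were higher with mivebresib (26.2% of all tested genes were) and 1 was lower (31.5% were). BUB1 was higher by 1.03 (95% interval 0.82 to 1.23; edgeR adjusted p = 2.62e-05) and AURKB by 0.82 (0.59 to 1.05; 0.000188). CDC20, CDK1, CCNA2, PLK1 and CCNB1 were higher by 0.52, 0.51, 0.34, 0.27 and 0.24, of which the calls of PLK1, CCNA2 and CCNB1 were lost with library size alone. The calls of PLK1 and CCNB1 were also lost without either quisinostat library or without mivebresib replicate 1, and that of CCNB1 without mivebresib replicate 2. AURKA was the gene that was lower, by -0.58 (-0.78 to -0.37; edgeR adjusted p = 0.000664). Against romidepsin, 2 were lower with mivebresib, AURKA by -0.79 (-0.99 to -0.59) and PLK1 by -0.30 (-0.47 to -0.13), where 25.2% of all tested genes were lower. BUB1, by 0.67 (0.47 to 0.87), and CCNB1, by 0.21 (0.042 to 0.37), were higher, where 23.7% were. The PLK1 call was lost without romidepsin replicate 1 and without mivebresib replicate 2, and the CCNB1 call in 13 of 17 other settings, among them those that left out any 1 drug library. AURKA and BUB1 therefore moved in opposite directions between mivebresib and both HDAC inhibitors, and their count ratio, BUB1 to AURKA, was 5.75 and 6.90 with mivebresib against 1.86 to 2.44 in the other 6 libraries.

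**Figure D3:**
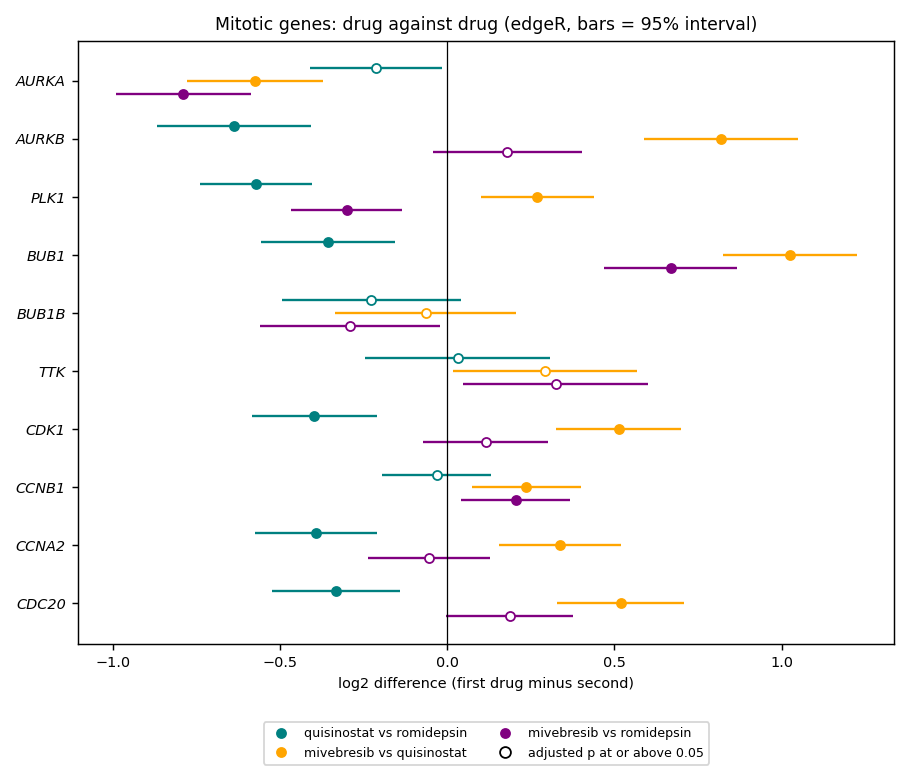
log2 difference of each mitotic gene between drugs (first named minus second), with 95% intervals from edgeR (filled points, adjusted p below 0.05). BUB1 with mivebresib lies right of 0 against both HDAC inhibitors, at 1.03 and 0.67, and AURKA lies left of 0, at -0.58 and -0.79.

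Levels of different genes were compared per length, as CPM per kilobase of the union of exons of all transcripts of a gene in GENCODE 29. The order between genes depends on this length, which can exceed that of the transcript in use, and no other length was tried. In the control, CDC20 had the highest level, at 38.3 ± 2.3 (SD, n = 2), followed by CCNB1 at 27.7 ± 0.58, AURKA at 23.8 ± 0.33, BUB1 at 23.1 ± 1.9, CCNA2 at 18.8 ± 0.57, CDK1 at 18.6 ± 0.29, PLK1 at 16.9 ± 0.099, BUB1B at 9.74 ± 1.2, TTK at 7.79 ± 1.4 and AURKB at 7.37 ± 0.092. In this order AURKA and BUB1, CCNA2 and CDK1, and TTK and AURKB had overlapping libraries and were not separated. AURKB was last in every group. With mivebresib BUB1 stood second, at 22.6 ± 0.81 CPM per kilobase, and AURKA seventh, at 7.41 ± 0.68.

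Over the 8 libraries, the log2 CPM of CCNA2 followed the mean of the other members most closely (Pearson r = 0.991), and AURKA (0.70) and BUB1 (0.702) followed it least. The search for similar genes was limited to a mean log2 CPM of 3 or more, and the 10 outside the set with the pattern most like the mean of the members were ARHGAP11A (0.996), TMPO (0.994), DGCR8 (0.993), CKAP2L (0.992), ZNF114 and GTSE1 (0.99 each), NUP85 (0.989), DPP9 (0.988), and RBMX and KBTBD2 (0.986 each). These coefficients describe 4 groups of 2 libraries that share controls and depth.

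Genes around mitosis were read beside the members. Of 10 genes of cohesin protection and separation, 7, 8 and 7 fell with romidepsin, quisinostat and mivebresib and 0 rose, with medians of -0.46, -0.65 and -0.66. The highest means over the drugs were those of PTTG1 and RAD21. PTTG1 was not called with any drug (log2 FC -0.0030, 0.011 and -0.48), and RAD21 fell with quisinostat only (-0.19, -0.38 and 0.056). CDCA5 (sororin), which holds sister chromatids together, fell (log2 FC -1.23, -2.05 and -1.0), as did SGO1, which guards cohesin at the centromere (-0.79, -1.09 and -1.49). By contrast, among 14 genes of the phosphatases that oppose mitotic kinases and of their inhibitors (ENSA and ARPP19), 4, 7 and 2 fell and 0, 0 and 1 rose. The medians were -0.20, -0.34 and -0.048, and 15.8%, 25.1% and 24.1% of all tested genes were called lower. The gene that rose was PPP2R5A, a regulatory subunit of PP2A (log2 FC 0.45 ± 0.089; edgeR adjusted p = 0.00353). The counts of falls ran from 1 to 8, 4 to 9 and 0 to 6 over the other settings, with the 8 and the 6 without control replicate 2. The 2 falls with mivebresib became 0 without any other library.

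Of 16 transcriptional regulators of mitotic genes, with the CDK inhibitor CDKN1A counted among them, 10, 9 and 9 fell and 0, 2 and 1 rose. The medians were -0.44, -0.42 and -0.38. CDKN1A fell with quisinostat (log2 FC -0.45; edgeR adjusted p = 0.00864), its 0.15 with romidepsin and -0.085 with mivebresib not passing. E2F5 rose with quisinostat (log2 FC 0.74; edgeR adjusted p = 0.000291) and fell with mivebresib (-0.49; 0.00394), its 0.27 with romidepsin not passing. NFYA, of NF-Y, rose with mivebresib (0.59; 0.000258) and fell with romidepsin (-0.29; 0.0171), its -0.0045 with quisinostat not passing. MYBL2, the MYB protein of the activating MuvB complex, was at 38.5 and 30.3 CPM in the control, 12.4 and 12.3 with romidepsin, 5.38 and 5.25 with quisinostat, and 13.5 and 13.4 with mivebresib. Its log2 FC was -1.48 ± 0.12, -2.69 ± 0.13 and -1.35 ± 0.12 (edgeR adjusted p = 0.000124, 2.43e-06 and 5.2e-05). FOXM1, the forkhead activator of G2 and M genes, fell (-0.66, -1.57 and -1.52), with romidepsin at an edgeR adjusted p of 0.00615 that was lost without romidepsin replicate 1.

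The 10 S-phase genes fell with romidepsin and quisinostat in 10 of 10 cases and with mivebresib in 7, with medians of -1.14, -1.82 and -0.72. UHRF1, which maintains DNA methylation at replication, fell (log2 FC -1.62, -2.34 and -0.99), as did GINS2, of the replicative helicase (-1.24, -2.08 and -1.40). SLBP (-0.53, -0.84 and 0.33) and PCNA (-0.47, -0.87 and -0.11) had the highest means over the drugs. Both fell with the HDAC inhibitors and were not called with mivebresib. Of 8 interphase cyclins and CDKs, 3, 5 and 3 fell and 1, 2 and 2 rose, where 15.8%, 25.1% and 24.1% of all tested genes were lower and 15.2%, 28.0% and 22.2% higher. CCNE2, a cyclin of S-phase entry, was at 23.4 and 24.7 CPM in the control, 7.80 and 7.61 with romidepsin, 7.22 and 6.40 with quisinostat, and 22.1 and 20.6 with mivebresib. It fell with the HDAC inhibitors (log2 FC -1.64 and -1.82), while its log2 FC of -0.17 with mivebresib did not pass, and it was higher with mivebresib than with romidepsin by 1.47 ± 0.10 (edgeR adjusted p = 1.32e-05). CDK2, the kinase that cyclins E and A activate, fell most with mivebresib, with a log2 FC of -1.12 with quisinostat and -1.43 with mivebresib against -0.28 with romidepsin, the last call lost in 14 of 17 other settings. CCND2, a D-type cyclin, rose by 0.59, 1.08 and 0.36, the last lost without mivebresib replicate 2. CCND1 fell with quisinostat (log2 FC -0.72; edgeR adjusted p = 0.000311) and rose with mivebresib (0.36; 0.0126), its -0.27 with romidepsin not passing.

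**Figure D4:**
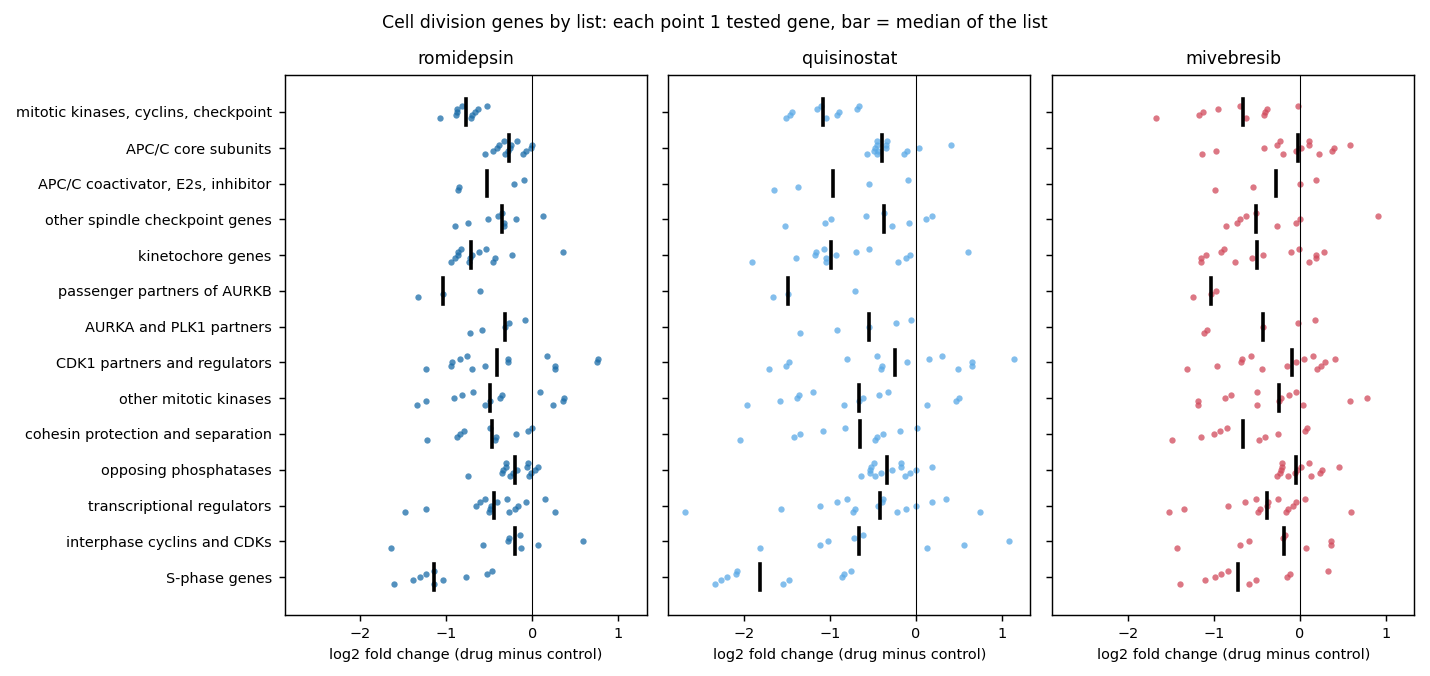
log2 FC against the control of every tested gene in the mitotic set and in 13 lists of related genes, for romidepsin, quisinostat and mivebresib (points are genes and bars are list medians). The mitotic set, with medians of -0.77, -1.08 and -0.66, lies left of the APC/C core subunits, at -0.27, -0.40 and -0.020, with every drug. The S-phase genes, at -1.14, -1.82 and -0.72, and the passenger partners of AURKB, at -1.04, -1.49 and -1.04, lie further left than the mitotic set with every drug.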

How the data were processed

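MP38 libraries of 4 groups of 2 were assigned from the labels; replicate numbers were taken from the labels. The authors made the tables with BioJupies, and the submitters' processing notes name hg38; the aligner, the annotation and the use of strand are not given in the sources used here. The deposited counts per gene symbol were not normalized. The authors' log10 table, log10(CPM + 1) of those counts, was used in 1 alternative, and their quantile-normalized table was not used. A single edgeR 4.0.16 model (R 4.3.3) of all 8 libraries, with filterByExpr by group and TMM factors, gave 6 contrasts by the two-sided quasi-likelihood test, with Benjamini-Hochberg adjustment over 15085 genes. An adjusted p below 0.05 made a call, and log2 CPM had a prior count of 2. The script was tested on simulated data. Depth was 28483235 to 29359024 counts. Over genes with at least 20 counts per pair, the spread within a group exceeded counting error, with a chi-square statistic per degree of freedom of 9.52 to 58.2. This need not hold for a single gene, such as AURKB at 181 and 183 counts with quisinostat. The alternatives were DESeq2 1.42.0, limma-voom and limma 3.58.1 on the log10 table, no filter or a minimum mean CPM of 5, scaling by library size alone or by upper-quartile factors, a fit of the 4 compared libraries, a replicate block, other thresholds, and each library left out. The members and gene lists were chosen with earlier results of these data known. Beside the members, at most 4 genes a list could be named: the 2 lowest and the 2 highest by mean log2 FC over the drugs. Not all of these are given. Listed partners of members were named too (CCNB2, MAD2L1, BIRC5, TPX2, UBE2C, WEE1, FZR1, PLK2, PLK4, CCNE2, CCND1, FOXM1, MYBL2, CDKN1A), and BORA was added. Gene coordinates, lengths and overlaps came from GENCODE 29 on GRCh38 and promoters from RefSeq on GRCh38.p14. Figures were drawn with matplotlib 3.10.9.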

Additional observations from a re-analysis of the deposited data

How the results depend on the processing

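Having 2 libraries per group limits these results. Without 1 library, its group keeps a lone sample, which is assumed to vary like the others. Of 510 combinations of a mitotic gene, a drug and an alternative against the control, 503 kept their direction and call, 4 lost the call (TTK with mivebresib) and 3 reversed. Between drugs, 442 of 510 kept both, 45 lost a call, 15 gained one and 8 reversed. For the counts of lists, 135 of 1326 moved by over 1.5 times, most often the APC/C core subunits with romidepsin and the phosphatases with mivebresib. The cause was not tested for any of these shifts.

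Over all tested genes, library size alone moved the median log2 FC to 0.059, 0.20 and 0.027 with romidepsin, quisinostat and mivebresib, and with upper-quartile factors to 0.072, 0.13 and 0.052. Counts of members that fell were 0, 1 and 1 against the control past a log2 FC of 1.5 with romidepsin, quisinostat and mivebresib, and 0, 0 and 0 for the 3 comparisons between drugs. Leaving out each library gave 10 to 10, 10 to 10 and 8 to 9 members lower against the control with the same drugs, 3 to 8 for quisinostat against romidepsin, 1 to 1 for mivebresib against quisinostat and 1 to 3 for mivebresib against romidepsin; the 1 came without romidepsin replicate 1 or without mivebresib replicate 2.

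The median log2 FC of the members with romidepsin was -0.694 with library size alone, -0.682 with upper-quartile factors, -0.707 with a mean CPM of at least 5 and -0.675 on the log10 table. In the same order it was -0.879, -0.95, -0.985 and -0.865 with quisinostat. With mivebresib it was -0.618 with upper-quartile factors and -0.613 on the log10 table. For quisinostat against romidepsin it was -0.216 with library size alone and -0.213 on the log10 table. In the order of the 4 settings above, it was 0.136, 0.232, 0.249 and 0.131 for mivebresib against quisinostat and 0.0965, 0.11, 0.117 and 0.0892 for mivebresib against romidepsin. Leaving out each library gave medians of -0.809 to -0.739 with romidepsin, -1.09 to -1.05 with quisinostat and -0.691 to -0.639 with mivebresib, and between drugs of -0.395 to -0.337 for quisinostat against romidepsin, 0.307 to 0.34 for mivebresib against quisinostat and 0.113 to 0.162 for mivebresib against romidepsin.

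These values reversed, none of them called in the reported fit. The log2 FC of BUB1 with mivebresib was 0.0175 with upper-quartile factors, 0.0549 without control replicate 2 and 0.00259 without mivebresib replicate 1, with a range of -0.111 to 0.0549 over the libraries left out, and BUB1B for mivebresib against quisinostat was 0.0564 without mivebresib replicate 1, with a range of -0.187 to 0.0564. For quisinostat against romidepsin, TTK was -0.00874 with only the 4 libraries, -0.0189 without romidepsin replicate 2 and -0.0249 without quisinostat replicate 1, and CCNB1 was 0.0967 with library size alone, 0.0141 with upper-quartile factors, 0.00478 with a mean CPM of at least 5 and 0.0947 on the log10 table. BORA was 0.00442 with upper-quartile factors, 0.00701 on the log10 table and 0.203 without control replicate 1 with romidepsin (range -0.298 to 0.203), and 0.0204 without control replicate 1 with quisinostat (range -0.459 to 0.0204). WEE1 was 0.0979 with library size alone, 0.028 with upper-quartile factors and 0.0959 on the log10 table with quisinostat, and 0.00294 with upper-quartile factors and 0.0085 without mivebresib replicate 1 with mivebresib (range -0.102 to 0.0085).

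The groups share only replicate numbers: the correlation of the deviations of same-numbered libraries ran from -0.162 to 0.158 over 6 pairs of groups, so the numbers were not taken as a pairing. With the replicate number as a block, the counts of members lower were 10, 10 and 9 against the control and 6, 1 and 2 between drugs, as without it, and CCNB1 for mivebresib against romidepsin kept its log2 difference of 0.205 at an edgeR adjusted p of 0.0581.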
